A study of Mus musculus with 4 samples.

Results

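The genes described here are those of the unfolded protein response and the amino acid stress response, 35 genes chosen by symbol as known sensors, transcription factors, folding and degradation factors of the endoplasmic reticulum, and targets of the transcription factor Atf4. All 35 were found among the 24784 genes of the deposited table, and all 35 reached a mean level of at least 1 RPKM (reads scaled to gene length and to library size), the minimum for testing. The study sequenced polyadenylated RNA from macrophages sorted by flow cytometry from liver tumours. There were 2 libraries of the genotype labelled OXCT1mKO, a name that points to the ketone body enzyme gene Oxct1 as the target, and 2 of the genotype labelled Control. Mice of both groups were male, 6 to 8 weeks old, and had been given the mouse hepatoma line Hepa 1-6 by a route labelled i.pv. The sources used here give neither the promoter or Cre line behind the genotype nor whether animals were pooled.

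The endoplasmic reticulum folds proteins for secretion and for membranes. When unfolded proteins build up there, the sensors Ern1 (IRE1), Atf6 and Eif2ak3 (PERK) raise chaperone and degradation genes through the factors Xbp1, Atf6 and Atf4. Atf4 is also made when a kinase of eIF2 alpha senses a lack of amino acids, and Atf4 then raises genes for the synthesis and import of amino acids. Macrophages secrete many of their cytokines through this compartment.

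The RPKM values of the libraries summed to 327811 in OXCT1mKO 1 and 325034 in OXCT1mKO 2, against 377575 in Control 1 and 355951 in Control 2. The read depth of the libraries is unknown. The globin share of all RPKM was 8.81% in Control 1 and between 0.132% and 0.327% in the other libraries. Oxct1 was at 14.7 and 15.4 RPKM in OXCT1mKO, against 19.3 and 20.3 RPKM in Control (log2 fold change -0.37 ± 0.09 SE, limma adjusted p 0.0346). The Oxct1 call was lost in some alternatives, with adjusted p up to 0.0627 with every library kept and up to 0.225 without one library. All 13 macrophage markers were present. Of these 7 rose and 1 fell, against 16.4% of all tested genes each way. Their sums were 1866 and 2047 RPKM in OXCT1mKO, against 2286 and 1677 RPKM in Control. The one that fell was Lyz2, lysozyme, at 8.76 and 6.52 RPKM in OXCT1mKO, against 688 and 744 RPKM in Control (-6.39 ± 0.15, limma adjusted p 0.00252). That change is far beyond those of the 35 genes, and its cause was not tested. Lyz2 made up a large part of both Control sums and little of the OXCT1mKO sums, so the sums hide how the other markers stood. The median log2 fold change of the 13 markers was 0.98. Transcripts of other cells were present as well, and the 8 epithelial and hepatoma markers summed to 629 and 572 RPKM in OXCT1mKO, against 790 and 1102 RPKM in Control.

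Promoter letters were examined first, because the response is known for short control elements in its genes. RefSeq promoters of build GRCm38.p6, from 250 bases before to 50 after each start, were found for 31 of the 35 genes, 33 promoters in all. The endoplasmic reticulum stress element (ERSE, CCAAT and CCACG with 9 free bases between them, read on both strands) was present in 6 of these 33 promoters (18.2%), against 0.119% of 32851 promoters in all. Its short form (ERSE-II, ATTGG and CCACG with 1 free base between them) was in 1 of the 33, against 0.0365% of all promoters. The element bound by Atf4 (CARE, TGATGNAA) was in 5 of the 33 (15.2%), against 3.97% of all promoters. The Xbp1 element (UPRE, TGACGTGG) was in 0 of the 33, against 0.676% of all promoters. A match is a description of letters and not a binding site, and the genes were chosen as known members of this response.

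The windows that held Atf4-type letters are shown because they set a gene that fell, Asns, beside genes that did not. Each runs 5′ to 3′ on the strand of its gene, from 20 bases before the first match to 20 bases after the last, with the matched letters in capitals. In Herpud1 the second match is the ERSE-II and the first is the CARE.
Asns, chr6:7693205-7693252, minus strand: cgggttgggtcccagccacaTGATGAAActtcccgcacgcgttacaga
Slc7a11, chr3:50443633-50443699, minus strand: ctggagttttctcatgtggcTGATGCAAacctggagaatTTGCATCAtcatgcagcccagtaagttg
Chac1, chr2:119351029-119351076, plus strand: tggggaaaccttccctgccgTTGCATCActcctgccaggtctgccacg
Trib3, chr2:152344019-152344066, minus strand: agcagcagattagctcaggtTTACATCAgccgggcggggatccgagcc
Herpud1, chr8:94386297-94386407, plus strand: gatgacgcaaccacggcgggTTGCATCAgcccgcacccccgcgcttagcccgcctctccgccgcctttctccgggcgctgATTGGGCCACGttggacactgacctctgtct

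The ERSE promoters belonged to Calr, Canx, Pdia6, Creld2, Syvn1 and Derl3, of which the 3 with the match on the strand of the gene are shown.
Canx, chr11:50325780-50325838, minus strand: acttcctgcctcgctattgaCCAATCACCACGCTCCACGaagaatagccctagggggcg
Pdia6, chr12:17266471-17266529, plus strand: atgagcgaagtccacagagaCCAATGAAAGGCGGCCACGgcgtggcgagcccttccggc
Syvn1, chr19:6046512-6046570, plus strand: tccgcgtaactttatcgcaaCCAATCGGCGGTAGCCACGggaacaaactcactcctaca

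The comparison asked how these genes differed between OXCT1mKO and Control, and how the quality control of the endoplasmic reticulum stood against the Atf4 targets. Of the 35 genes, 6 rose and 6 fell, where rose and fell mean a limma adjusted p under 0.05 over all 12523 genes tested. Those 12 are 34.3% of the group, near the 32.8% of all tested genes that changed (16.4% upward and 16.4% downward), so the total count is no result about these genes. The libraries of the groups did not overlap for 12 members that were higher in OXCT1mKO and 11 that were lower, against 37.6% and 37% of all tested genes. The genes that rose were Ern1, Atf6, Sel1l, Herpud1, Edem1 and Sdf2l1, and those that fell were Atf4, Asns, Phgdh, Psat1, Shmt2 and Manf. By role, 4 of 18 quality control genes rose and 1 fell, whereas 0 of 11 Atf4 targets rose and 4 fell. The difference between these roles was not tested. In whole-sample RNA, fewer cells of a type and less RNA per cell cannot be told apart.

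Every one of the 12 calls was lost when either OXCT1mKO library was left out, settings in which limma called 1 gene (without OXCT1mKO 1) and 10 genes (without OXCT1mKO 2) in all. All 12 kept their direction there. The 12 genes also kept their direction without either Control. Some calls were lost there too, as given for Atf4 and Manf below.

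**Figure D1:**
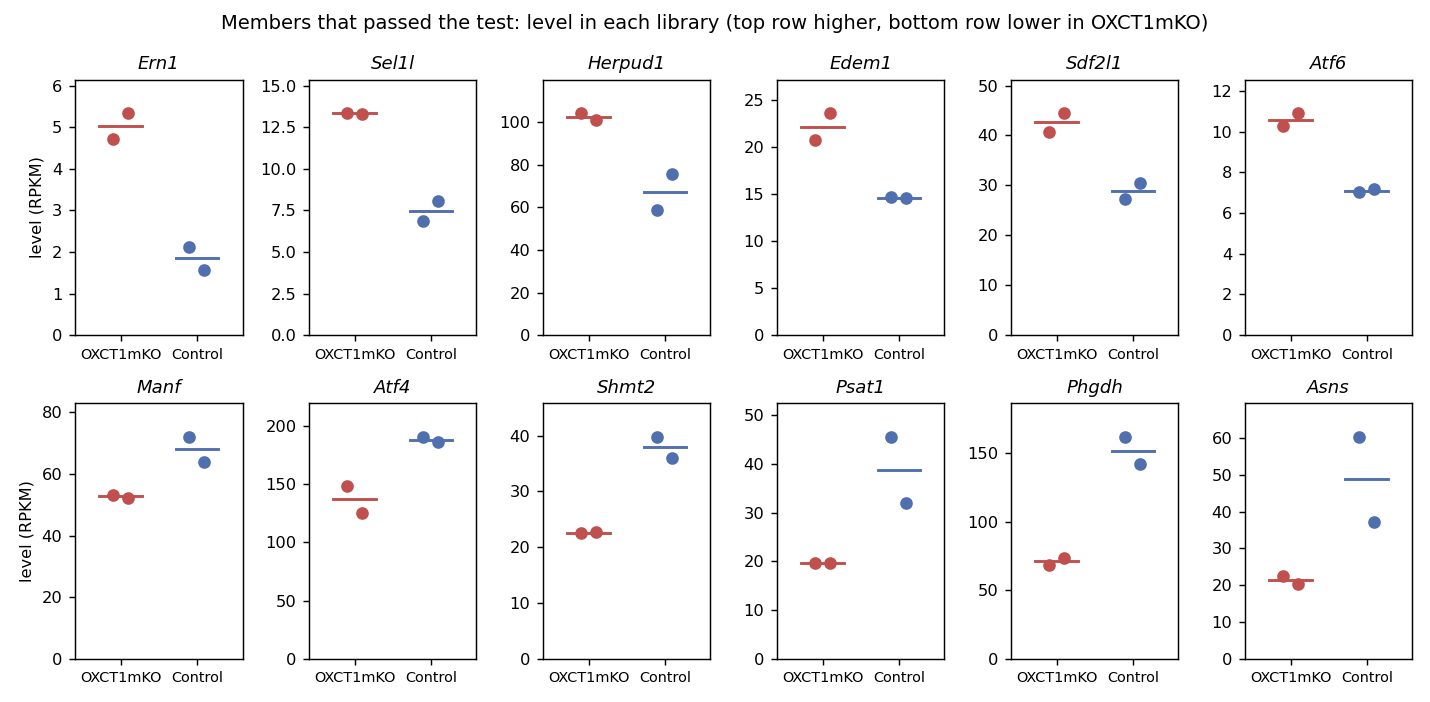
Level in RPKM (vertical axes, each from 0) of the 12 genes that passed the test, with 1 point per library, OXCT1mKO left and Control right, and a bar at each mean of 2 libraries. In all 12 both OXCT1mKO libraries lie on the same side of both Control libraries, as they do in 74.7% of all tested genes.

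Among the sensors, Ern1, which encodes the kinase and RNase that splices Xbp1 RNA, showed the largest rise of the 35 genes. Its level was 4.71 and 5.34 RPKM in OXCT1mKO, against 2.12 and 1.57 RPKM in Control. Both OXCT1mKO libraries were more than 2 RPKM above the higher Control, and the log2 fold change, on the log2(RPKM + 1) scale throughout, was 1.09 ± 0.15 (SE, limma adjusted p 0.0135). The gene is at chr11:106394650-106487852 (GRCm38, minus strand). Atf6, the sensor that is cut in the Golgi to release a transcription factor, was at 10.3 and 10.9 RPKM in OXCT1mKO, against 7.03 and 7.16 RPKM in Control. The groups stood apart with little spread within either, and Atf6 (chr1:170704674-170867771, minus strand) rose by 0.52 ± 0.09 (limma adjusted p 0.0201). Eif2ak3, the PERK kinase that phosphorylates eIF2 alpha, was at 9.77 and 9.87 RPKM in OXCT1mKO, against 5.27 and 9.999 RPKM in Control. Control 1 alone was low, the groups overlapped and the gene did not pass (0.38 ± 0.28, limma adjusted p 0.322). Without Control 2 the Eif2ak3 value was 0.79 (limma adjusted p 0.0184), and without Control 1 it was -0.02.

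The factors below the sensors did not follow a common direction. Xbp1 was at 95.03 and 104 RPKM in OXCT1mKO, against 85.5 and 93.6 RPKM in Control, a log2 fold change of 0.15 with a 95% interval of -0.11 to 0.41 (limma adjusted p 0.293). Spliced and unspliced Xbp1 RNA are counted together here. Atf4 was at 149 and 125 RPKM in OXCT1mKO, against 191 and 186 RPKM in Control. Both OXCT1mKO libraries were below both Controls, and Atf4 (chr15:80255184-80257541, plus strand) fell by 0.46 on the log2 scale (SE 0.12, limma adjusted p 0.0416). That call is close to the threshold and was lost without either Control (limma adjusted p 0.0866 and 0.0662), without the filter on low genes (0.0787), without the variance trend (0.0503) and with equal RPKM sums (0.0695). Atf4 is controlled mainly in translation, which RNA levels do not show. Ddit3 (CHOP), the factor tied to cell death under lasting stress, was at 21.8 and 19.2 RPKM in OXCT1mKO, against 24.3 and 25.1 RPKM in Control, with a log2 fold change of -0.26 ± 0.10 that did not pass (limma adjusted p 0.106). A stretch of 68 exonic bases of Ddit3 overlaps Mars on the opposite strand, and no source used here says whether counting used strand.

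**Figure D2:**
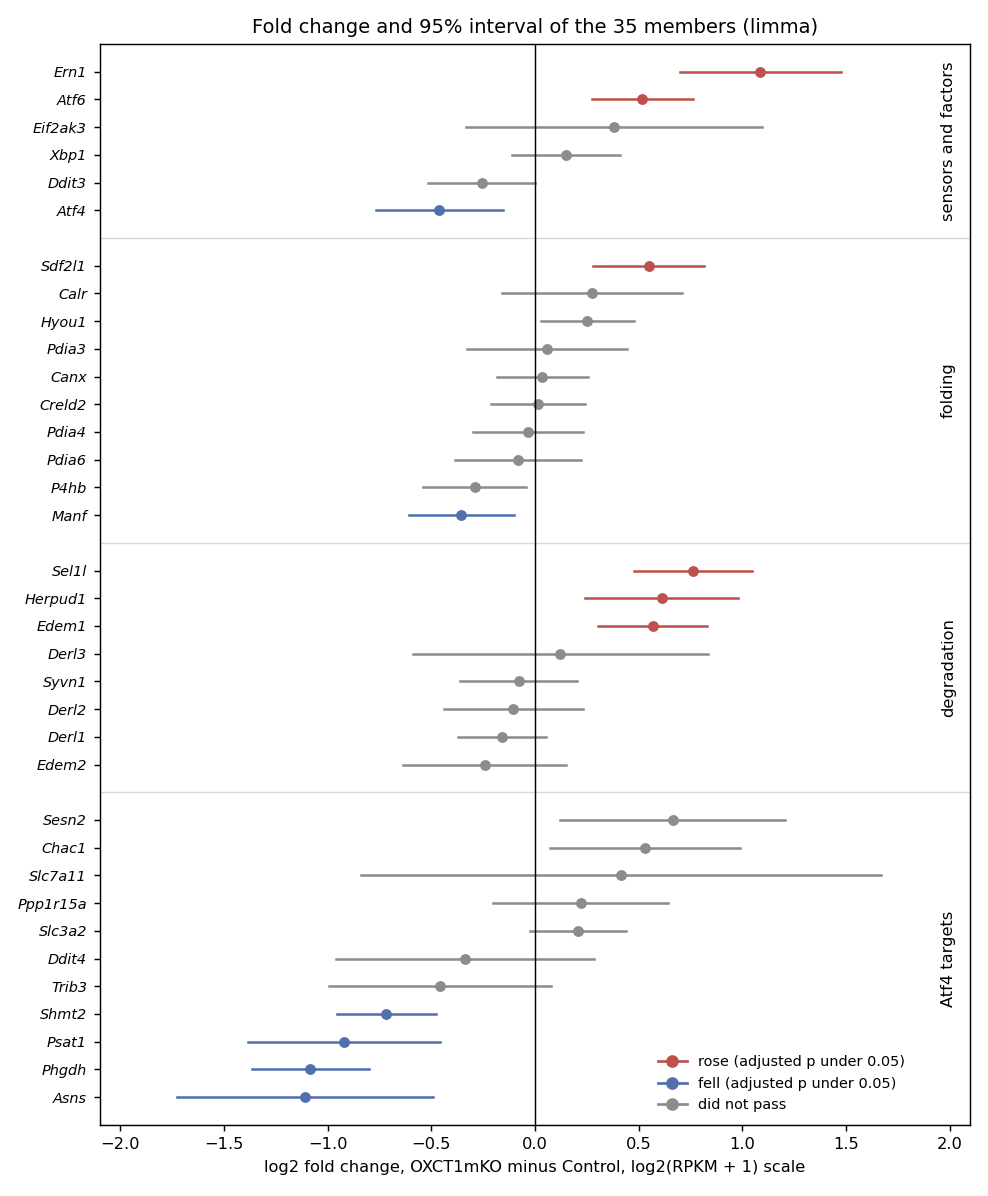
Log2 fold change (horizontal axis, OXCT1mKO minus Control on the log2(RPKM + 1) scale) of the 35 genes by role, with points at the limma estimate and lines for 95% intervals. Red marks the 6 genes that rose, blue the 6 that fell and grey the 23 that did not pass.

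Most folding factors did not pass. Of 10, Sdf2l1 rose and Manf fell, and the median log2 fold change of the 10 was 0.02, against 0.00 for all tested genes. Calr, the calcium-binding lectin chaperone with the highest level of the 35, was at 402 and 438 RPKM in OXCT1mKO, against 301 and 400.0 RPKM in Control (0.27 ± 0.17, limma adjusted p 0.251). Its value was 0.07 without Control 1 and 0.48 without Control 2 (limma adjusted p 0.648 and 0.041). Its membrane-bound relative Canx was at 75.7 and 78.2 RPKM in OXCT1mKO, against 73.5 and 76.6 RPKM in Control, with an interval of -0.19 to 0.26 around 0.03. The protein disulfide isomerases Pdia3, Pdia4 and Pdia6, which make and correct disulfide bonds, had log2 fold changes of 0.06, -0.03 and -0.08 with overlapping groups. Those of Pdia4 and Pdia6 turned positive, at 0.07 and 0.02, with equal RPKM sums. P4hb, the main isomerase of the compartment, was at 175 and 189 RPKM in OXCT1mKO, against 219.8 and 227 RPKM in Control, and did not pass (-0.29 ± 0.10, limma adjusted p 0.0738).

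Sdf2l1, a cofactor of the chaperone BiP, was at 40.7 and 44.5 RPKM in OXCT1mKO, against 27.2 and 30.5 RPKM in Control. The groups stood more than 10 RPKM apart and the gene (chr16:17130138-17132383, minus strand) rose by 0.55 ± 0.10 (limma adjusted p 0.0216). Hyou1, a large chaperone that exchanges the nucleotide of BiP, was at 35.9 and 36.7 RPKM in OXCT1mKO, against 29.3 and 31.3 RPKM in Control (0.25 ± 0.09, limma adjusted p 0.0811). With equal RPKM sums Hyou1 passed (0.35, limma adjusted p 0.0339). The secreted stress proteins Manf and Creld2 differed from Sdf2l1 in their values. Manf was at 53.3 and 52.4 RPKM in OXCT1mKO, against 72.1 and 64.1 RPKM in Control, and Manf (chr9:106838312-106891979, minus strand) fell by 0.36 (SE 0.10, limma adjusted p 0.048). The Manf call was lost without Control 1 (limma adjusted p 0.077) and under most other settings, and 146 of its exonic bases overlap Dcaf1 on the opposite strand. Creld2 was at 29.7 and 30.0 RPKM in OXCT1mKO, against 28.5 and 30.6 RPKM in Control, with an interval of -0.21 to 0.24.

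The degradation arm, which draws misfolded proteins back to the cytosol for the proteasome, held 3 of the 6 rises. Of its 8 genes 3 rose and 0 fell, against 16.4% upward over all genes, and their median log2 fold change was 0.02. The 8 were chosen with earlier results of these data known, so this share is not a test of the arm. Sel1l, the adaptor of the ubiquitin ligase Syvn1 (HRD1), was at 13.4 and 13.3 RPKM in OXCT1mKO, against 6.87 and 8.07 RPKM in Control, a ratio of means of 1.78. The OXCT1mKO libraries were almost equal and well above both Controls, and Sel1l (chr12:91806043-91849157, minus strand) rose by 0.76 ± 0.11 (limma adjusted p 0.0142). Syvn1 itself was at 15.5 and 15.8 RPKM in OXCT1mKO, against 15.3 and 17.9 RPKM in Control, with an interval of -0.36 to 0.20, and 91 of its exonic bases overlap Mrpl49. The difference between the 2 partners was not tested.

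Edem1, a lectin that hands trimmed glycoproteins to degradation, was at 20.7 and 23.6 RPKM in OXCT1mKO, against 14.7 and 14.5 RPKM in Control. Edem1 (chr6:108828641-108859356, plus strand) rose by 0.57 ± 0.10 (limma adjusted p 0.0198). Its relative Edem2, a mannosidase that starts the trimming, was at 16.1 and 16.8 RPKM in OXCT1mKO, against 22.7 and 17.1 RPKM in Control, and did not pass (-0.24 ± 0.15, limma adjusted p 0.258). The Edem2 value was -0.44 without Control 2 (limma adjusted p 0.0339) and -0.05 without Control 1 (limma adjusted p 0.696). Herpud1, which gathers the ligase complex and whose promoter window above holds both element types, was at 104 and 101 RPKM in OXCT1mKO, against 58.9 and 75.8 RPKM in Control. Herpud1 (chr8:94386438-94395377, plus strand) rose by 0.61 ± 0.14 (limma adjusted p 0.0337), a call lost without the filter on low genes (limma adjusted p 0.0702). The channel proteins Derl1, Derl2 and Derl3 did not pass, with log2 fold changes of -0.16, -0.11 and 0.12. In Derl2, 231 exonic bases overlap Mis12 on the opposite strand. Derl3 was low throughout, at 0.893 and 1.295 RPKM in OXCT1mKO, against 0.514 and 1.42 RPKM in Control.

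The 11 Atf4 targets had a median log2 fold change of -0.34, against 0.00 for all tested genes. That median rested on single Control libraries, at -0.65 without Control 1 and 0.01 without Control 2. The 4 that fell are enzymes of amino acid synthesis, and 36.4% of the 11 fell, against 16.4% of all tested genes. The 11 were chosen with earlier results of these data known, so this share is not a test of the class. Phgdh, the first enzyme of serine synthesis, was at 68.5 and 73.6 RPKM in OXCT1mKO, against 162 and 142 RPKM in Control. Its level in OXCT1mKO was 0.468 of that in Control, with little spread within groups, and Phgdh fell by 1.08 on the log2 scale (SE 0.11, limma adjusted p 0.0127). Psat1, the aminotransferase of the next step, was at 19.8 and 19.7 RPKM in OXCT1mKO, against 45.6 and 32.1 RPKM in Control. It fell by 0.92 (SE 0.18, limma adjusted p 0.0228), with the spread lying in the Controls.

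Shmt2, the mitochondrial enzyme that turns serine into glycine and a one-carbon unit, was at 22.6 and 22.7 RPKM in OXCT1mKO, against 39.8 and 36.0 RPKM in Control. It fell by 0.72 (SE 0.09, limma adjusted p 0.0129), and 32 of its exonic bases overlap Ndufa4l2 on the opposite strand. Asns, asparagine synthetase, was at 22.5 and 20.4 RPKM in OXCT1mKO, against 60.3 and 37.2 RPKM in Control, the largest fall of the 35 genes by fold. In RPKM, though not on the log2 scale, the Controls differed from each other by more than the lower one differed from OXCT1mKO. Asns fell by 1.11 (SE 0.24, limma adjusted p 0.0284), ranging from 0.77 to 1.45 in size when 1 library was left out. Without the filter on low genes the calls of Asns and Psat1 were lost (limma adjusted p 0.069 and 0.0562), whereas those of Phgdh and Shmt2 held under every alternative that kept all 4 libraries. These genes are at chr3:98313170-98339990 (Phgdh), chr19:15904678-15947337 (Psat1), chr10:127517123-127522444 (Shmt2) and chr6:7675169-7693254 (Asns), each on the minus strand.

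The other 7 Atf4 targets did not pass, in either direction, and 5 of them had higher means in OXCT1mKO. Sesn2, a leucine sensor that restrains mTORC1, was at 7.48 and 7.93 RPKM in OXCT1mKO, against 3.50 and 5.70 RPKM in Control, with groups apart (0.66 ± 0.21, limma adjusted p 0.0669). It passed with equal RPKM sums (limma adjusted p 0.0425) and without Control 2 (0.95, limma adjusted p 0.0178), and was at 0.38 without Control 1 (limma adjusted p 0.07). Chac1, which breaks down glutathione, was low, at 1.67 and 1.605 RPKM in OXCT1mKO, against 0.616 and 1.06 RPKM in Control (0.53 ± 0.18, limma adjusted p 0.0752). It passed without Control 2 (0.71, limma adjusted p 0.0399), and was at 0.36 without Control 1 (limma adjusted p 0.151). Slc3a2, the heavy chain shared by several amino acid transporters, was at 91.0 and 96.0 RPKM in OXCT1mKO, against 78.9 and 82.8 RPKM in Control (0.21 ± 0.09, limma adjusted p 0.129).

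Ppp1r15a (GADD34), which restores translation by directing the removal of phosphate from eIF2 alpha, was the second most abundant of the 35 by mean in OXCT1mKO, at 336 and 259.6 RPKM, against 237 and 271 RPKM in Control. The groups overlapped (0.22 ± 0.16, limma adjusted p 0.333). Trib3, a pseudokinase that inhibits Atf4, was at 4.52 and 4.05 RPKM in OXCT1mKO, against 4.99 and 7.77 RPKM in Control (-0.46 ± 0.21, limma adjusted p 0.145). Ddit4, an inhibitor of mTORC1, was at 72.7 and 69.9 RPKM in OXCT1mKO, against 70.8 and 115 RPKM in Control (-0.34 ± 0.24, limma adjusted p 0.312). Slc7a11, the cystine importer, was at 4.33 and 3.76 RPKM in OXCT1mKO, against 1.28 and 5.27 RPKM in Control (0.41 ± 0.48, limma adjusted p 0.531).

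In these last genes the Controls lay far apart. Control 2 was above Control 1 for Slc7a11, Ddit4, Trib3, Sesn2, Chac1 and Eif2ak3, and below it for Asns and Psat1. Without Control 1, Trib3 (-0.73, limma adjusted p 0.0311) and Ddit4 (-0.69, limma adjusted p 0.0236) were lower in OXCT1mKO, and Slc7a11 had a value of -0.32. Without Control 2, Slc7a11 was higher (1.14, limma adjusted p 0.0186), and Trib3 (-0.18, limma adjusted p 0.303) and Ddit4 (0.01, limma adjusted p 0.93) did not pass. Of the 4 Atf4 targets with CARE letters in the promoter, Asns fell and Chac1, Trib3 and Slc7a11 did not pass. Phgdh, Psat1 and Shmt2 had no such letters in their windows.

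**Figure D3:**
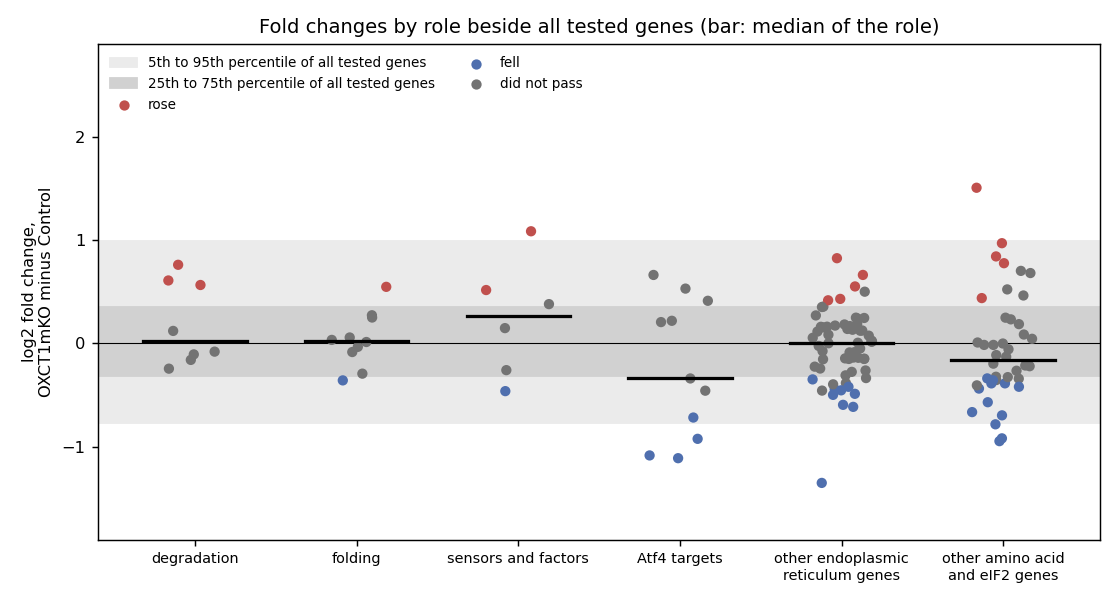
Log2 fold change (vertical axis, OXCT1mKO minus Control) of each gene by role, with the 2 lists of other pathway genes at the right, a black bar at each median and grey bands for the spread of all 12523 tested genes. The Atf4 targets have the lowest median (-0.34). The 4 that fell lie below the 25th percentile of all tested genes, as do Trib3 and Ddit4, which did not pass. The other 5 that did not pass lie above 0.

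Other genes of the same pathways were read from a pair of lists. Among 63 tested genes of folding, translocation and degradation, 5 rose and 9 fell (7.94% and 14.3%, against 16.4% each way over all tested genes), with a median log2 fold change of 0.00. By smallest p, Dnajc3, a cochaperone of BiP that restrains PERK, was at 26.9 and 29.2 RPKM in OXCT1mKO, against 16.9 and 17.7 RPKM in Control, and rose by 0.66 ± 0.09 (limma adjusted p 0.0135). Creb3l2, a membrane-bound transcription factor of the Atf6 type, rose by 0.55 ± 0.09. Ssr2 (-0.59 ± 0.09), a subunit of the translocon-associated complex, Bax (-0.49 ± 0.08), a cell death effector, Fkbp11 (-1.35 ± 0.24), a prolyl isomerase of secretory cells whose call was lost without the filter on low genes (limma adjusted p 0.0517), and Bloc1s1 (-0.45 ± 0.08) fell. Bloc1s1 RNA is known to be cut by the RNase of Ern1. It was at 49.4 and 48.3 RPKM in OXCT1mKO, against 66.8 and 67.6 RPKM in Control (limma adjusted p 0.0199).

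Further genes of this list were picked after their values were seen. The chaperones Hspa5 (BiP) and Hsp90b1 (GRP94), the classic readouts of the response, did not pass. Hspa5 was at 658 and 712 RPKM in OXCT1mKO, against 519 and 715 RPKM in Control (0.17 ± 0.18, limma adjusted p 0.503). Hsp90b1 was at 286 and 300.3 RPKM in OXCT1mKO, against 268 and 320.3 RPKM in Control, with an interval of -0.32 to 0.33. The channel subunits Sec61a1 (-0.35 ± 0.09), Sec61b (-0.61 ± 0.11) and Sec61g (-0.50 ± 0.13), through which new proteins enter the compartment, fell (limma adjusted p 0.0201 to 0.0452). The calls of Sec61a1 and Sec61g were lost without Control 2 and with equal RPKM sums. The other 3 genes of the list that rose were Ero1lb (0.83 ± 0.17), an oxidase that recharges the disulfide isomerases, Tmx3 (0.43 ± 0.10), a membrane-bound isomerase, and Uggt1 (0.42 ± 0.11), which tags unfolded glycoproteins for another folding round (limma adjusted p 0.0271 to 0.0478). Those of Tmx3 and Uggt1 were lost without Control 1, and all 3 without the filter on low genes. The other 2 that fell were Tmx2 (-0.44 ± 0.11, limma adjusted p 0.042) and Selenos (-0.42 ± 0.09, limma adjusted p 0.0261), a partner of the Derl proteins, and both were lost with equal RPKM sums, Tmx2 also without Control 1.

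Among 42 tested genes of amino acid and eIF2 alpha stress, 5 rose and 12 fell (11.9% and 28.6%, against 16.4% each way over all tested genes), with a median log2 fold change of -0.16. Slc1a4, a carrier of serine and alanine, was at 3.56 and 3.65 RPKM in OXCT1mKO, against 7.56 and 7.86 RPKM in Control, and fell by 0.92 (SE 0.10, limma adjusted p 0.0127). Gdf15 (-0.66 ± 0.10), a secreted stress signal, and Eif2b1 (-0.70 ± 0.11), a subunit of the exchange factor eIF2B, fell too. Jdp2 (1.51 ± 0.23), a repressor of the AP-1 family, Vegfa (0.78 ± 0.11), the vascular growth factor, and Tnfrsf10b (0.84 ± 0.14), the death receptor for TRAIL, rose, with limma adjusted p between 0.014 and 0.0179.

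Looked at after their values were seen, 4 of the 5 eIF2B subunits fell, Eif2b1, Eif2b2 (-0.36), Eif2b3 (-0.57) and Eif2b5 (-0.39), while Eif2b4 (-0.33) did not pass. Over all tested genes 16.4% fell, and the subunits were picked for their values. The calls of Eif2b2, Eif2b3 and Eif2b5 were lost with equal RPKM sums, and also without Control 2 for Eif2b2 and without Control 1 for Eif2b3 and Eif2b5. Of serine and glycine metabolism, the cytosolic Shmt1 was at 9.62 and 12.3 RPKM in OXCT1mKO, against 21.1 and 17.8 RPKM in Control, and fell by 0.78 (SE 0.15, limma adjusted p 0.0231, lost at 0.0581 without Control 1). Psph, the last enzyme of serine synthesis, was at 4.65 and 3.64 RPKM in OXCT1mKO, against 5.67 and 5.14 RPKM in Control, and did not pass (-0.32 ± 0.14, limma adjusted p 0.136). Mthfd2, the mitochondrial folate enzyme that handles the one-carbon unit released by Shmt2, was at 8.04 and 8.73 RPKM in OXCT1mKO, against 10.1 and 7.05 RPKM in Control. Its groups overlapped and it did not pass (-0.01 ± 0.18, limma adjusted p 0.958).

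Of the remaining genes looked at in this way, Eif2s1 (-0.34 ± 0.08), which encodes eIF2 alpha, Pck2 (-0.39 ± 0.11), a mitochondrial enzyme that makes phosphoenolpyruvate, Bbc3 (-0.95 ± 0.16), the cell death protein PUMA, and Atf5 (-0.44 ± 0.09), a relative of Atf4, fell, with limma adjusted p between 0.0186 and 0.0493. The calls of Eif2s1 and Pck2 were lost with equal RPKM sums and without either Control, and that of Atf5 at 0.0509 without Control 2. Eif4ebp1 (-0.42 ± 0.08, limma adjusted p 0.0231), a brake on cap-dependent translation, also fell. The other 2 genes of this list that rose were Ndrg1 (0.44 ± 0.09, limma adjusted p 0.026), a stress-induced gene, and Cebpb, a partner of Atf4 and a factor of macrophage activation. Cebpb was at 275 and 177 RPKM in OXCT1mKO, against 98.6 and 127 RPKM in Control (0.97 ± 0.25, limma adjusted p 0.0418). The Cebpb call was lost without either Control (limma adjusted p 0.121 and 0.0514) and without the filter on low genes (0.0947).

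Markers of other cells moved along the same groups, and their part in these results was not tested. Cells of the exocrine pancreas have a large endoplasmic reticulum. The 19 acinar markers summed to 7.28 and 5.11 RPKM in OXCT1mKO, against 70.6 and 51.5 RPKM in Control, with 1 at 0 in every library. All 11 that were tested fell. Most of the 11 had OXCT1mKO means under 1 RPKM and passed the filter, a mean over all 4 libraries, only through the Controls. That all of them fell was therefore largely fixed by the filter. Ctrb1, the highest, was at 0.220 and 0.189 RPKM in OXCT1mKO, against 14.5 and 7.95 RPKM in Control. The counts that follow stand beside 16.4% of all tested genes that rose and 16.4% that fell. Of 11 T cell markers 5 fell, with sums of 54.9 and 100.3 RPKM in OXCT1mKO, against 253 and 169 RPKM in Control. Among the 8 epithelial and hepatoma markers 3 fell and 1 rose, with the sums given above. Of 9 Kupffer cell markers 8 rose, with sums of 465 and 291 RPKM in OXCT1mKO, against 67.9 and 60.9 RPKM in Control, and 7 of 9 liver endothelial markers rose, with sums of 1602 and 1443 RPKM in OXCT1mKO, against 790 and 966 RPKM in Control. The B and plasma cell markers, with sums of 121 and 144 RPKM in OXCT1mKO, lay within the range of the Controls, at 54.8 and 227 RPKM. Of 11 tested 1 rose and 0 fell. Neutrophil markers summed to 589 and 407 RPKM in OXCT1mKO, against 171 and 1332 RPKM in Control, the widest gap between the Controls of any list. S100a8 and S100a9 made up most of each neutrophil sum, and of 8 tested markers 0 rose and 1 fell. Hepatocyte markers summed to 705 and 459 RPKM in OXCT1mKO, against 599 and 514 RPKM in Control. Alb made up most of that sum. Of the 13 markers 8 were higher in both OXCT1mKO libraries than in either Control and 2 were lower, against 37.6% and 37% of all tested genes. By the test 2 rose and 1 fell, with a median log2 fold change of 0.88. The markers of stellate cells summed to 201 and 149 RPKM in OXCT1mKO, against 223 and 185 RPKM in Control, and of 6 tested 2 fell and 0 rose. The markers of plasmacytoid dendritic cells summed to 353 and 349 RPKM in OXCT1mKO, against 323 and 390 RPKM in Control. Bst2 made up most of the plasmacytoid sums, and of 6 tested markers 1 rose and 0 fell.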

How the data were processed

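RPKM values were deposited by the authors as 1 table with genes in rows and the 4 samples in columns. STAR 2.10, R 4.0.5 and build mm10 are named in the submitters' processing notes. For the counter, its strand setting, the annotation and the gene lengths, the entry is not given in the sources used here. Groups and replicate numbers came from the sample titles.

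RPKM values are not counts, so values were transformed to log2(RPKM + 1) and the 12523 genes with a mean of at least 1 RPKM were tested with limma 3.58.1 under R 4.3.3 (group as the single term, variance trend, two-sided, Benjamini-Hochberg over all genes, threshold 0.05). The fit was tested on simulated data. The log2 scale with this pseudocount understates changes of low genes. The smallest exact permutation p for 2 libraries against 2 is 0.333. Whether each sample was a different mouse is not stated in the labels. The p-values therefore reflect sample-to-sample spread alone, and that spread may be technical. Low RPKM values were not resolved into reads, so no counting interval is given.

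The 35 genes, the lists and the naming rule were chosen with earlier results of these data known. The rule named all 35 genes, Oxct1, the 6 genes with the smallest p in each of the 2 other pathway lists, and up to 3 markers of a list, those with the highest mean. A further 24 pathway genes were named after their values were seen, which completes the called genes of these lists. Coordinates came from GENCODE M21 (GRCm38). Alternatives were another pseudocount (0.1), no filter or a minimum of 5 RPKM, no variance trend, 2 rescalings, the replicate number as a block, and each library left out. Globin genes were those with symbols starting Hba- or Hbb-.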

Additional observations from a re-analysis of the deposited data

How the results depend on the processing

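Over 11 alternatives, all 12 calls among the 35 genes kept their direction, Ern1 not being tested at a minimum mean of 5 RPKM. With 1 library left out, the counts ran from 0 to 11 for members higher, 0 to 6 for members lower, 1 to 4418 for all genes, 0 to 15 for other endoplasmic reticulum genes and 0 to 14 for other amino acid and eIF2 genes. The class medians then ran from 0.030 to 0.37 for sensors and factors, -0.042 to 0.064 for quality control and -0.65 to 0.010 for Atf4 targets. Without the filter on low genes, where 19514 genes were tested, 2340 genes changed, 2 members fell, and 7 and 10 genes of the other pathway lists changed. With equal RPKM sums without globin, a scaling that moved the median of all genes to 0.09, 64.8% of called genes were higher, against 50.1% without it, the quality control median was 0.12, and 8 members rose and 4 fell. Oxct1 had the values -0.37 (adjusted p 0.0504) without the filter, -0.28 (0.0627) with equal sums and -0.37 (0.0577) with the replicate block, and ran from -0.41 to -0.34 with 1 library left out.

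The replicate numbers were not taken as pairs, since no label says so and the deviations of same-numbered libraries had a correlation of 0.0545 across genes. With the replicate block 7 members rose and 5 fell, Sesn2 joining (adjusted p 0.0438) and Manf leaving (0.0669). Genes that turned in sign were all ones that did not pass. With equal sums these were Pdia4 (0.067), Pdia6 (0.017), Syvn1 (0.016) and Mthfd2 (0.076), and with median ratio scaling Hsp90b1 (-0.0026). With 1 library left out, values ran from -0.024 to 0.79 for Eif2ak3, -0.12 to 0.24 for Pdia3, -0.12 to 0.052 for Pdia4, -0.19 to 0.026 for Pdia6, -0.035 to 0.064 for Creld2, -0.19 to 0.028 for Syvn1, -0.21 to 0.0019 for Derl2, -0.22 to 0.46 for Derl3, -0.69 to 0.010 for Ddit4, -0.32 to 1.14 for Slc7a11, -0.061 to 0.40 for Hspa5, -0.13 to 0.13 for Hsp90b1 and -0.25 to 0.22 for Mthfd2. The cause of these shifts was not tested. In fits without 1 library, the lone library of a group is assumed to vary like the 2 of the other group. The read depth is unknown, so what it limits, as for Derl3 and Chac1 near 1 RPKM, could not be computed.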
